A study of Mus musculus with 9 samples.

Results

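Epididymal fat of mice on a high fat diet (HFD) was compared with the same fat pad of mice on a normal diet (ND). The fat came from C57BL6/J mice aged 16 weeks, which were put on their diet at weaning, and neither diet group received mannose. The study measured total RNA on 9 Illumina bead arrays, 3 for HFD, 3 for ND and 3 for HFD with mannose in the drinking water. The 6 HFD and ND arrays are compared. The mannose arrays served only in the joint normalization and to estimate the spread between samples of one diet. Of 45281 probes, 19239 were kept because they had a detection p under 0.05 on at least 3 of the 6 arrays. They include 10931 named genes, each taken at its kept probe with the highest mean level. The labels number the replicates without stating that each came from a separate mouse, so p-values measure only the spread between these samples. The sources used here do not state the diet's fat content. Whole fat pads were extracted, so more cells of a type and more RNA per cell cannot be told apart.

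The epididymal pad is a visceral fat depot beside the epididymis of male mice. Its adipocytes make triglyceride from glucose and from circulating fatty acids, and secrete hormones such as leptin and adiponectin. In obesity this depot is known to gain macrophages, which gather around dying adipocytes, take up lipid into lysosomes and release chemokines, while matrix is deposited between the fat cells.

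All values are normalized log2 intensities, and differences are HFD minus ND on that log2 scale. A probe or gene was called where limma's moderated test gave a Benjamini-Hochberg adjusted p under 0.05 over all 19239 probes. On the 6 arrays 18390 to 20903 probes were detected, the lowest detected level lay between 5.49 and 5.81, and the scale ended at 16.05. Markers of the neighbouring organs did not stay level between arrays. The mean level of 11 testis and sperm markers was 5.57, 5.76 and 10.02 on HFD arrays 1 to 3, and 6.14, 10.81 and 8.40 on ND arrays 1 to 3. Prm1, which packs DNA in sperm, measured 7.70, 7.09 and 14.53 in HFD and 9.44, 14.77 and 13.36 in ND. HFD replicate 3, ND replicate 2 and ND replicate 3 thus stood apart from the others, and no testis marker was called. Of 30 epididymis and vas deferens markers on the arrays, 11 were tested, and the others were detected on fewer than 3 of the 6 arrays. The mean level of the 11 was 6.52 to 6.62 in HFD and 7.36 to 8.62 in ND, without overlap. Wfdc15b, Cuzd1 and Adam7 passed the detection filter through ND arrays alone, so the filter itself set part of this gap. Cuzd1 was detected on no HFD array (4.80, 4.91 and 4.97) but measured 12.34, 5.67 and 8.58 in ND. Adam7 was likewise detected on no HFD array (5.09, 5.16 and 4.80), against 7.84, 5.50 and 10.20 in ND. Lcn8 was high on ND replicate 3 alone, with 5.84, 6.18 and 5.79 in HFD and 5.66, 5.94 and 12.67 in ND. Lcn5 and Lcn9, defining markers of the epididymis, were detected on none of the 6 arrays. The part of these organs in the diet differences was not tested beyond the values given here.

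**Figure D1:**
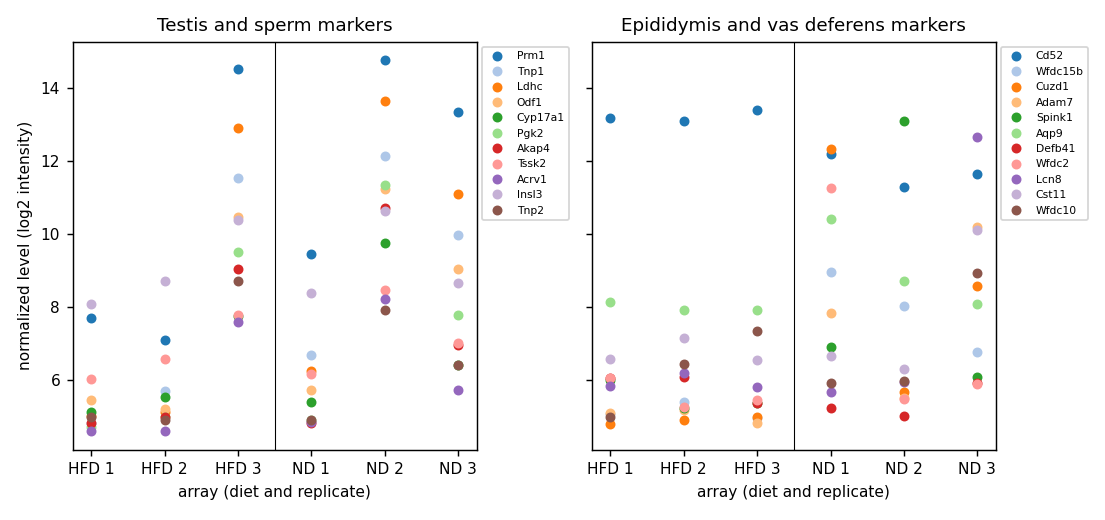
Normalized level (log2 intensity, vertical axis) of the tested testis and sperm markers (left) and epididymis and vas deferens markers (right) on HFD arrays 1 to 3 and ND arrays 1 to 3, with 1 point per gene and array. The testis markers sit high on HFD array 3 and ND arrays 2 and 3, while epididymis markers such as Cuzd1 and Adam7 are at background on the 3 HFD arrays.

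Between HFD and ND fat, 438 of 19239 probes were called (2.28%), 337 of them higher in HFD (1.75%) and 101 lower (0.525%). By gene, 219 of 10931 rose in HFD (2.00%) and 65 fell (0.595%), or 2.60% together. The HFD and ND values overlapped in none of these genes, so a lack of overlap in a called gene adds nothing to its call. Over all genes tested, 12.2% had all HFD values above ND and 10.8% had all below. The median difference was 1.54 over the genes that rose, -1.38 over those that fell and -0.01 over all genes tested. Of the genes that rose, 61 did so at least 4-fold and 17 at least 8-fold, whereas 9 of those that fell passed 4-fold and 2 passed 8-fold. HFD replicate 2 had the highest of the 3 HFD values in 150 of the 219 genes that rose, against 34 for replicate 1 and 35 for replicate 3. The median excess over the ND mean in these genes was 1.38, 1.77 and 1.38 on HFD replicates 1, 2 and 3. When HFD replicate 2 was left out, 28 probes were called, and leaving out HFD replicate 1 or HFD replicate 3 gave 95 or 199. Each of these omissions left 401 of the 438 probes in the test. The omission of ND replicate 2 gave 221 and that of replicate 3 of the mannose diet 268. Of the 438 calls, 76.9% were higher in HFD. A fit without the 5 arrays of the series whose mean testis marker level was over 7 was also made. It kept HFD replicates 1 and 2, ND replicate 1 and replicate 2 of the mannose diet. HFD was the only diet with more than 1 array left, so the calls of that fit are not given. With all 9 arrays and the mean epididymis marker level as a covariate, 8 probes were called, all higher in HFD. Only Pvalb among the genes named in the text was one of them (adjusted p = 0.0378). The covariate itself did not overlap between HFD (6.52 to 6.62) and ND (7.36 to 8.62). This fit therefore cannot separate the marker level from diet.

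**Figure D2:**
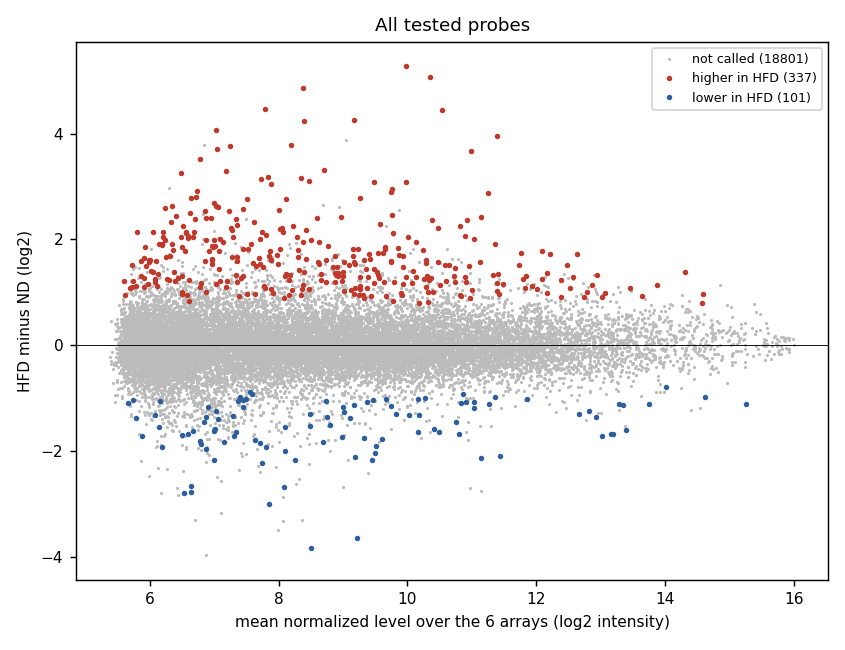
Difference HFD minus ND (log2, vertical axis) against the mean level over the 6 arrays (log2 intensity, horizontal axis) for the 19239 tested probes. Red points are the 337 probes called higher in HFD and blue points the 101 called lower, and the red points reach farther from 0.

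The largest rise was that of Ubd, which encodes FAT10, a ubiquitin-like protein induced by inflammatory cytokines. Ubd measured 12.12, 13.34 and 12.39 in HFD fat and 8.84, 6.60 and 6.60 in ND fat. The difference was 5.27 ± 0.57 (SE; adjusted p = 0.0043), or 38.7-fold, and the groups lay far apart although 1 ND sample was above the others. Tph2, the serotonin-making hydroxylase known from neurons, measured 12.11, 13.88 and 12.65 in HFD and 7.15, 7.40 and 8.87 in ND (5.07 ± 0.60, SE; adjusted p = 0.0056). Every HFD value was more than 3 log2 units above every ND value. Slc5a7, the high-affinity choline transporter, measured 10.64, 11.35 and 10.43 in HFD and 5.79, 5.38 and 6.69 in ND, where 1 array detected it. It rose by 4.86 ± 0.38 (SE; adjusted p = 0.0007). Rgs1, a brake on G protein signals in leukocytes, measured 9.50, 10.34 and 10.21 in HFD and 5.67, 5.88 and 5.08 in ND. Its difference was 4.47 ± 0.29 (SE; adjusted p = 0.0003), and its other 2 kept probes rose by 3.26 and 2.91.

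Saa3, an acute-phase serum amyloid protein made in fat and macrophages, measured 12.35, 13.52 and 12.39 in HFD and 8.21, 8.001 and 8.74 in ND (4.44 ± 0.34, SE; adjusted p = 0.0007). Lipf, the gastric lipase, measured 11.07, 12.39 and 10.42 in HFD and 6.92, 6.42 and 7.77 in ND (4.26 ± 0.48, SE; adjusted p = 0.0049). Both were higher in every HFD sample, with HFD replicate 2 on top. Pvalb, a calcium buffer of fast muscle and neurons, measured 10.27, 10.71 and 10.56 in HFD and 6.91, 5.34 and 6.58 in ND (4.24 ± 0.39, SE; adjusted p = 0.0016). Pvalb was the only skeletal muscle marker called among 7 tested, and the defining marker Myh1 was detected on none of the 6 arrays. Vsig8, an immunoglobulin-domain protein, measured 8.89, 9.42 and 8.86 in HFD and was not detected on any ND array. By that bound it was at least 10.5-fold higher in HFD (adjusted p = 0.0003). Vsig8 passed the detection filter through HFD arrays alone, so its adjusted p is subject to that selection. Ubd, Tph2, Slc5a7, Rgs1, Saa3, Lipf and Pvalb stayed called when each of the 9 arrays was left out in turn, and Vsig8 did so in the 6 omissions in which it passed the detection filter, those of ND and mannose arrays.

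The other large rises were genes of macrophages in obese fat. Gpnmb, a glycoprotein of lipid-laden macrophages, measured 12.98, 13.75 and 13.36 in HFD and 10.62, 8.81 and 8.79 in ND (3.96 ± 0.47, SE; adjusted p = 0.0056). Its other 3 kept probes were called in the same direction. Mmp12, the macrophage metalloelastase, measured 10.02, 9.85 and 10.37 in HFD and 7.69, 5.25 and 5.96 in ND (3.78 ± 0.58, SE; adjusted p = 0.0147). The ND values of both genes spread widely, with ND replicate 1 highest. Gpnmb missed the threshold without HFD replicate 2 (adjusted p = 0.052), and Mmp12 without HFD replicate 1 or 2 (adjusted p up to 0.0747).

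Acsm3, a mitochondrial enzyme that activates medium-chain fatty acids, had the largest fall. It measured 7.45, 5.25 and 7.08 in HFD and 9.52, 11.20 and 10.55 in ND, a difference of -3.83 ± 0.60 (SE; adjusted p = 0.016). Another Acsm3 probe fell by 3.00, while the last one, near background, differed by 0.08 (adjusted p = 0.878). Cyp2f2, a cytochrome P450 best known from airway cells, measured 6.97, 7.44 and 7.80 in HFD and 11.07, 11.37 and 10.68 in ND (-3.64 ± 0.28, SE; adjusted p = 0.0007). Cyp2f2 was the only one of the 10 largest falls that stayed called without each array in turn. Wfdc15b, on the list of epididymis markers, was detected on no HFD array and measured 8.96, 8.03 and 6.77 in ND, and so was at least 4.40-fold lower in HFD (adjusted p = 0.0216). The transcript 2010016I18Rik was at least 4.73-fold lower (adjusted p = 0.0077), with 8.43, 7.98 and 7.67 in ND and no detection in HFD. Wfdc15b and 2010016I18Rik passed the detection filter through ND arrays alone, so their adjusted p-values are subject to that selection. Adgrg2, an adhesion receptor known from the epididymis, measured 7.38, 6.88 and 7.25 in HFD and 10.39, 8.88 and 8.77 in ND (-2.17 ± 0.39, SE; adjusted p = 0.0245).

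The other 5 large falls lay between -2.17 and -1.93 and were genes of several kinds. Tst, a mitochondrial sulfur transferase, measured 8.53, 8.45 and 8.14 in HFD and 11.20, 10.59 and 9.83 in ND (adjusted p = 0.014). Thbd, the endothelial anticoagulant thrombomodulin, measured 10.57, 9.28 and 10.36 in HFD and 11.89, 13.00 and 11.72 in ND (adjusted p = 0.0393). In both genes the lowest ND value lay above the highest HFD value. Ces1f, a carboxylesterase, measured 10.92, 9.48 and 10.75 in HFD and 12.39, 12.91 and 12.13 in ND (adjusted p = 0.0227). Tmem79 measured 7.29, 6.54 and 7.44 in HFD and 8.76, 8.78 and 9.75 in ND (adjusted p = 0.0309). Steap2, a metalloreductase, measured 6.86, 7.04 and 6.62 in HFD and 8.90, 9.16 and 8.24 in ND (adjusted p = 0.0101). Leaving out HFD replicate 2 ended the call of 9 of the 10 genes with the largest falls, all but Cyp2f2, with adjusted p up to 0.161 over all omissions for Thbd.

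**Figure D3:**
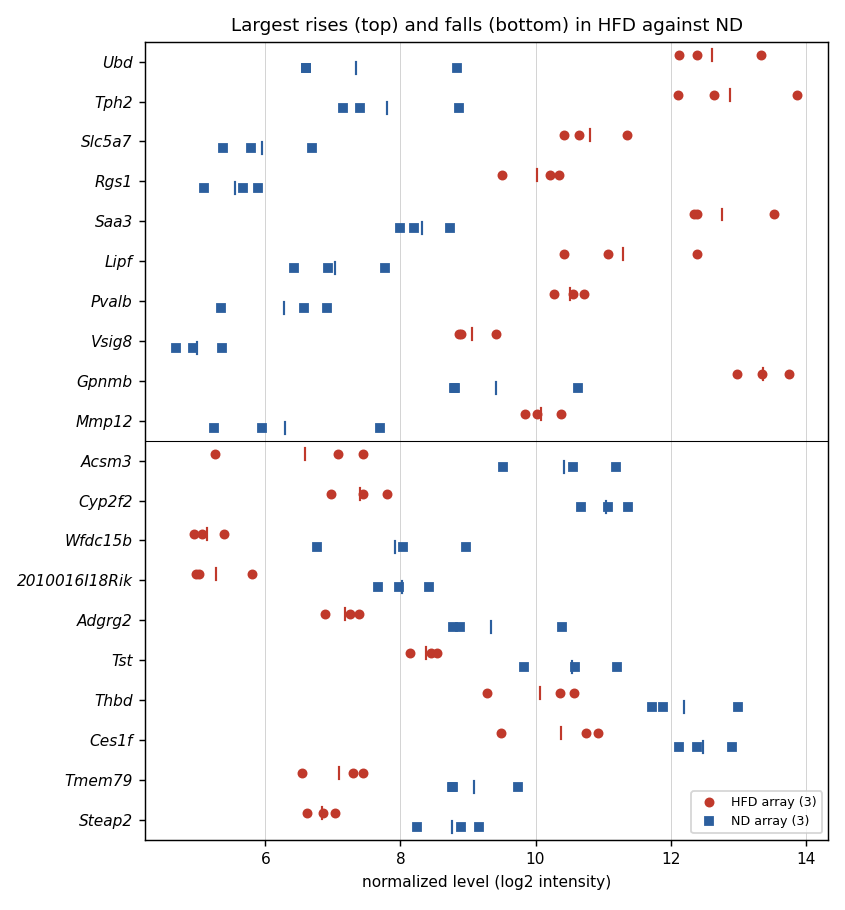
Normalized level (log2 intensity, horizontal axis) of the 10 genes with the largest rise in HFD (top) and the 10 with the largest fall (bottom), with HFD arrays as red circles and ND arrays as blue squares, 3 each, and a tick at each mean. The red and blue symbols do not overlap for any of the 20 genes, which the selection required.

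Inflammatory genes held the largest share of rises among the lists. Of 32 cytokine, chemokine and acute-phase genes, 24 were tested, 9 were called higher in HFD and none lower, with a median difference of 1.12, and 18 had HFD values all above the ND values. Over all genes tested, 2.00% were called higher, 12.2% had HFD values all above ND, and the median difference was -0.01. Ccl2, the main monocyte attractant, measured 8.72, 9.92 and 9.58 in HFD and 5.91, 5.83 and 7.36 in ND (3.04 ± 0.43, SE; adjusted p = 0.0114). Its neighbour in function Ccl7 measured 10.37, 11.43 and 11.21 in HFD and 8.09, 8.09 and 9.41 in ND (2.47 ± 0.40, SE; adjusted p = 0.0176). ND replicate 3 was the highest ND sample in both genes and still lay below every HFD sample. Cxcl1, a neutrophil attractant, measured 8.22, 8.91 and 8.45 in HFD and 6.47, 5.40 and 6.54 in ND (2.39 ± 0.33, SE; adjusted p = 0.0113). Il1rn, the secreted antagonist of interleukin 1, measured 7.75, 8.66 and 7.95 in HFD and 5.66, 5.76 and 5.31 in ND (2.55 ± 0.32, SE; adjusted p = 0.0076). Arg1, an arginase of alternatively activated macrophages, and Ptx3, a soluble pattern receptor, rose by 2.02 and 2.22. Arg1 lost its call without 5 of the 9 arrays and Ptx3 without 7 (adjusted p up to 0.155). The chemokines Ccl6 and Ccl9 rose by 1.28 and 1.14, and each lost its call without 5 of the 9 arrays. Ccl2, Ccl7, Cxcl1 and Il1rn did so without HFD replicate 2 alone. Cxcl10, an interferon-induced chemokine, differed by 1.93 without passing (adjusted p = 0.197), and none of 13 interferon response genes was called. Of the list, 1 member was called with HFD replicate 2 left out, 6 with HFD replicate 1 or 3 left out and 5 with ND replicate 2 left out.

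The macrophage and lysosome genes known from obese fat gave the next largest share. Of 28 genes 23 were tested, with a median difference of 0.87, and 13 had all HFD values above ND (12.2% over all genes tested). The members called were 8 higher (2.00% over all genes tested) and none lower. Besides Gpnmb and Mmp12 they included Trem2, a lipid receptor of macrophages, with 10.86, 11.53 and 11.31 in HFD and 9.12, 7.39 and 8.34 in ND (2.95 ± 0.40, SE; adjusted p = 0.0101). Slc37a2, a sugar phosphate transporter of macrophages, measured 8.77, 9.84 and 9.23 in HFD and 6.86, 6.37 and 6.94 in ND (2.56 ± 0.29, SE; adjusted p = 0.0048). Slc37a2 stayed called without each array in turn, and Trem2 without each but HFD replicate 2. Lgals3 (galectin 3), Lipa (lysosomal acid lipase), Capg (an actin-capping protein) and Ctsk (cathepsin K) rose by 1.39, 1.15, 1.58 and 1.49. Of the 9 omissions of 1 array, Ctsk lost its call in 8 and Capg in 6, among them all 3 of mannose arrays for both, and Lgals3 and Lipa lost theirs in 3 each. With HFD replicate 2 left out 1 member was called, with HFD replicate 1 left out 3, and with HFD replicate 3 left out 5.

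Fewer of the general macrophage markers passed. Of 19 markers 18 were tested and 2 were called, both higher in HFD: the antibody receptor Fcgr3 (1.40 ± 0.23, SE; adjusted p = 0.0178) and the pore-forming Mpeg1 (1.31 ± 0.25, SE; adjusted p = 0.0292). The median difference of the list was 0.82, and 13 had all HFD values above ND. Over all genes tested, 2.00% were called higher and 12.2% had all HFD values above ND. The mean level of the list was 11.12 to 11.56 in HFD and 10.46 to 10.49 in ND. Adgre1, the classical macrophage surface antigen, measured 10.85, 11.18 and 10.84 in HFD and 10.14, 10.15 and 10.17 in ND and did not pass (adjusted p = 0.0506). Tyrobp, the signalling partner of Trem2, differed by 2.09 and did not pass (adjusted p = 0.0573). No macrophage marker was called without HFD replicate 1 or 2, and 1 was without HFD replicate 3 or replicate 3 of the mannose diet. The count rose to 7 with detection p under 0.01 on all 3 arrays of a diet. It was 5 without background correction and 5 in the authors' normalized values. With the 6 arrays alone it fell to 1, and with the replicate number as a block to 0.

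Upstream sequences are shown for Cxcl1, Ubd, Mmp12 and Trem2 because each holds a motif of a factor known from macrophages or inflammation; they were chosen after the motifs were seen. Each is the 250 bases before the gene's start, 5′ to 3′ on the gene's strand, from RefSeq on GRCm38.p6, in lower case with motif matches in capitals. The places are chr5:90890995-90891244, plus strand, for Cxcl1, and chr17:37193642-37193891, plus strand, for Ubd. For Mmp12, the place is chr9:7344147-7344396, plus strand, 1 of 2 listed starts, and for Trem2 it is chr17:48346151-48346400, plus strand.
Cxcl1: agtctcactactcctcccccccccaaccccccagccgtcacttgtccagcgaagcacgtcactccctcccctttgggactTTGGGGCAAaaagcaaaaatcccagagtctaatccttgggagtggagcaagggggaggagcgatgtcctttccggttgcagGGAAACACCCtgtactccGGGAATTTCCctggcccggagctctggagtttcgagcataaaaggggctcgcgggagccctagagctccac
Ubd: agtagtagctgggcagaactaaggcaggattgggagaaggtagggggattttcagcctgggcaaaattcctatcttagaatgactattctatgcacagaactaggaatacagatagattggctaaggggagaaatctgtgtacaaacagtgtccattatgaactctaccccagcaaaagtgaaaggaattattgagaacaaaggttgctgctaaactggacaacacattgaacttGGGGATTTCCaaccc
Mmp12: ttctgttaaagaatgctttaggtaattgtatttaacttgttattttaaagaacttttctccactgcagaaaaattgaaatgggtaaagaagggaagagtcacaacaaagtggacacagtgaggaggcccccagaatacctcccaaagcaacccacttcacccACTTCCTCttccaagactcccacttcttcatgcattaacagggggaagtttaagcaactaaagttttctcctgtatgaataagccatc
Trem2: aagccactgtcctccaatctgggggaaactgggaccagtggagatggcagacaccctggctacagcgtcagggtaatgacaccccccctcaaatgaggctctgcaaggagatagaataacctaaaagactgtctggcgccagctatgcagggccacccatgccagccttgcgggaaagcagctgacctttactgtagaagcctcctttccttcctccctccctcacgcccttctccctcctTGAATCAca
The capitals mark an NF-kB type motif at -89 and -71 in Cxcl1 and at -15 in Ubd. They also mark TTGCNNCAA at -170 in Cxcl1, GAGGAAGT (PU.1 type) at -88 in Mmp12 and TGANTCA (AP-1 type) at -9 in Trem2. TTGCNNCAA is not assigned to a factor here. Positions give a match's first base before the start, and both strands were searched. Upstream sequence was found for 173 of the 219 genes that rose, 51 of the 65 that fell and 8836 of all 10931. The NF-kB type motif occurred in 5.20% of the genes that rose, none of those that fell and 1.39% of all genes tested. GAGGAAGT occurred in 5.20% of those that rose, none that fell and 2.30% of all, and TGANTCA in 9.25%, 1.96% and 4.54%. TTGCNNCAA occurred in 2.89%, 1.96% and 1.36% of genes that rose, genes that fell and all genes. The E-box CACGTG occurred in 5.20%, 5.88% and 8.33% of the same groups, and the TATA box, searched as TATAAA, in 12.7%, 11.8% and 7.37%. Over the 27025 promoters of the whole table, the shares were 1.40% for the NF-kB type, 2.44% for the PU.1 type and 6.87% for the AP-1 type. They were 1.78% for TTGCNNCAA, 6.05% for the E-box and 13.0% for the TATA box. Motifs may overlap one another. A match describes the letters only.

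Of 32 extracellular matrix genes 25 were tested, with a median difference of 0.60. None was called lower, and 3 were called higher in HFD (2.00% over all genes tested). Besides Mmp12 these were Tnc, the matrix glycoprotein tenascin C, with 8.17, 7.94 and 8.05 in HFD and 6.88, 6.76 and 6.71 in ND (1.27 ± 0.18, SE; adjusted p = 0.0113). Col4a2, a basement membrane collagen, measured 14.00, 13.99 and 14.00 in HFD and 12.61, 12.88 and 13.27 in ND (1.08 ± 0.21, SE; adjusted p = 0.0359). Col4a2 lost its call without 7 of the 9 arrays, and Tnc without HFD replicate 1 or 2. Timp1, an inhibitor of matrix proteases, differed by 2.25 at its brightest probe without passing (adjusted p = 0.0612), while its other probe, with a mean of 10.72 in HFD against 10.78 at the brightest, was called (2.29 ± 0.44, SE; adjusted p = 0.0309). Mmp3, the protease stromelysin 1, likewise did not pass at its brightest probe (1.91; adjusted p = 0.0682), and 1 of its other 2 probes was called (2.13 ± 0.40, SE; adjusted p = 0.029). Counting any kept probe, 5 matrix genes were called higher, 2 of them only by a dimmer probe. Of all 10931 genes, 37 were called only by a dimmer probe, in either direction. Col6a2, a collagen VI chain, differed by 1.15 without passing (adjusted p = 0.0614). At the brightest probe, no matrix gene was called without HFD replicate 1 or 2, whereas 6 were without ND replicate 3.

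Genes of fatty acid and triglyceride synthesis were the only pathway list with several members called lower. Of 27 genes 22 were tested, 4 fell and none rose, 11 had all HFD values below ND, and the median difference was -0.89. Over all genes tested, 0.595% were called lower and 10.8% had all HFD values below ND. Fads1, the delta-5 desaturase, measured 12.33, 12.20 and 12.20 in HFD and 13.47, 13.86 and 13.48 in ND (-1.36 ± 0.17, SE; adjusted p = 0.0079). Aacs, which makes acetoacetyl-CoA for lipid synthesis, measured 12.27, 12.24 and 11.97 in HFD and 13.33, 14.10 and 14.18 in ND (-1.71 ± 0.26, SE; adjusted p = 0.014). Each HFD value of both genes was lower than each ND value, and ND replicate 1 was the lowest ND sample. Acacb, the acetyl-CoA carboxylase that restrains fatty acid oxidation, and Tkt, the transketolase of the pentose phosphate pathway, fell by 1.46 and 1.25, and each lost its call without 5 of the 9 arrays. The 2 dimmer probes of Tkt differed by -1.19 and -0.82 and did not pass (adjusted p = 0.288 and 0.438). Fasn, fatty acid synthase, measured 7.48, 7.28 and 7.61 in HFD and 7.68, 8.61 and 8.24 in ND and did not pass (adjusted p = 0.314). With HFD replicate 2 left out no member was called, and with HFD replicate 1 left out 1 was. With HFD replicate 3, ND replicate 2 or ND replicate 3 left out 2 were called, and with ND replicate 1 left out 7.

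**Figure D4:**
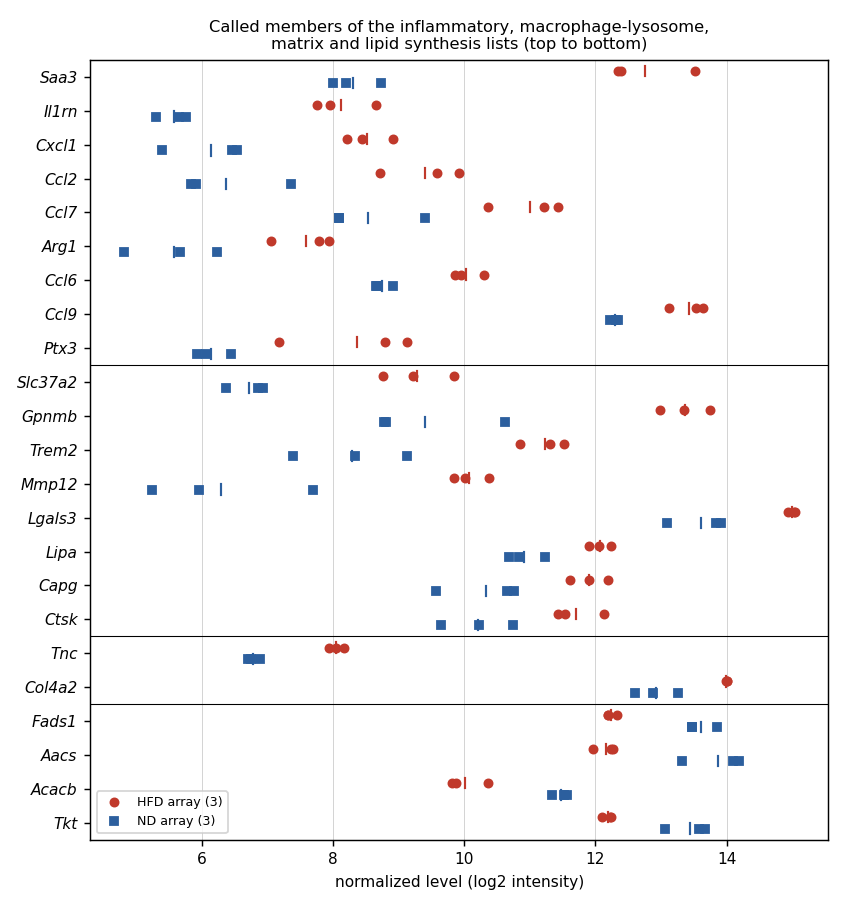
Normalized level (log2 intensity, horizontal axis) of the called members of the inflammatory, macrophage and lysosome, matrix and lipid synthesis lists, separated by lines from top to bottom, with HFD arrays as red circles and ND arrays as blue squares, 3 each, and a tick at each mean. HFD values lie to the right of ND values except in the lowest block, where Fads1, Aacs, Acacb and Tkt lie to the left.

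Among 21 tested adipocyte genes, 2 were called, both higher in HFD (2.00% over all genes tested), and the median difference was -0.16. Sfrp5, a secreted Wnt antagonist of fat cells, measured 11.77, 10.75 and 11.08 in HFD and 8.34, 7.48 and 9.08 in ND (2.90 ± 0.42, SE; adjusted p = 0.0128). Mest, an imprinted gene linked to fat cell enlargement, measured 13.02, 12.57 and 12.30 in HFD and 11.05, 10.78 and 10.84 in ND (1.74 ± 0.30, SE; adjusted p = 0.0205). The other 2 probes of Mest were also called, at 1.92 and 2.11, and neither Mest nor Sfrp5 stayed called without HFD replicate 1 or 2, nor Mest without ND replicate 2. Leptin (Lep) measured 15.90, 16.00 and 15.96 in HFD and 15.63, 15.92 and 15.90 in ND, close to the 16.05 at which the scale ends, and its groups overlapped. Adiponectin (Adipoq) measured 15.53, 15.17 and 15.44 in HFD and 15.47, 15.72 and 15.47 in ND (adjusted p = 0.695). Fabp5, a fatty acid carrier also found in macrophages, rose by 1.60 ± 0.33 (SE; adjusted p = 0.043) as the only one of 21 lipolysis, uptake and oxidation genes, and lost its call without 7 of the 9 arrays.

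Other lists held few or no calls. Over all genes tested, 2.00% were called higher and 0.595% lower, and 12.2% had all HFD values above ND. The ER stress list of 15 tested genes had 1 rise, that of the stress transcription factor Atf3 (8.58, 8.99 and 8.79 in HFD and 6.67, 6.83 and 5.85 in ND; 2.33 ± 0.36, SE; adjusted p = 0.0155). It also had 1 fall, that of the asparagine synthetase Asns (-1.01 ± 0.20, SE; adjusted p = 0.0356), which lost its call without 8 of the 9 arrays. Of 8 genes of MHC class II antigen presentation, H2-DMb1 was called (1.34 ± 0.22, SE; adjusted p = 0.0181), and 6 had all HFD values above ND. H2-Ab1, a class II chain, differed by 0.83 at its brightest probe without passing (adjusted p = 0.0775), but 1 of its other 2 probes was called (1.005 ± 0.21, SE; adjusted p = 0.0433). Ciita, the class II transactivator, differed by 0.60 (adjusted p = 0.174). Its other probe, which passed the detection filter through HFD arrays alone, was called (adjusted p = 0.0172). Counting any kept probe, 3 of the 8 were called, 2 of them only by a dimmer probe. Of all 10931 genes, 37 were called only by a dimmer probe, in either direction. Cd74, the class II chaperone, differed by 0.75 without passing (adjusted p = 0.0822). Atf3 and H2-DMb1 lost their calls without HFD replicate 1 or 2. No gene was called among 33 of mannose metabolism and glycosylation, 24 of mitochondria, 20 of insulin signalling and glucose use, 15 of the cell cycle, 13 of hypoxia and vessel growth, 12 of cholesterol synthesis and 7 of thermogenesis. Their medians were 0.01, -0.09, -0.19, 0.69, -0.35, 0.19 and 0.86 in that order. Among the cell cycle genes, Birc5 and Cdk1 differed by 1.35 and 1.26 (adjusted p = 0.107 and 0.113), and HFD replicate 2 was highest in both.

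Markers of cell types other than macrophages seldom passed. Over all genes tested, 2.60% were called. Il7r, the interleukin 7 receptor, was called among 10 T and NK cell markers, with 8.88, 9.47 and 9.04 in HFD and 6.61, 7.14 and 7.02 in ND (2.21 ± 0.25, SE; adjusted p = 0.0049), whereas none of the CD3 genes Cd3d, Cd3e and Cd3g was called. Il7r stayed called without each array in turn. S100a8, a calcium-binding protein of neutrophils, was called among 4 neutrophil markers (3.68 ± 0.68, SE; adjusted p = 0.0273). It measured 12.46, 13.77 and 12.26 in HFD and 10.63, 7.60 and 9.23 in ND, but its partner S100a9 was at 6.32, 6.16 and 4.95 in HFD and 6.20, 5.08 and 5.33 in ND, near background. Blnk was called among 4 B cell markers (1.32 ± 0.26, SE; adjusted p = 0.0376). Cd52, which is on the epididymis list but is also made by leukocytes, rose by 1.51 ± 0.25 (SE; adjusted p = 0.0202), and its dimmer probe differed by 1.45 without passing (adjusted p = 0.0822). None was called by any kept probe among 11 endothelial, 10 fibroblast and progenitor, 9 mesothelial, 6 mast cell, 5 dendritic and 4 red blood cell markers. None of 7 smooth muscle markers was called at its brightest probe, but Acta2, smooth muscle actin, which differed by 0.65 there (adjusted p = 0.152), was called by 1 of its 3 dimmer probes (1.33 ± 0.20, SE; adjusted p = 0.0133). The other 2 differed by 1.24 and 0.70 without passing (adjusted p = 0.0572 and 0.0804). Blnk lost its call without 7 of the 9 arrays, S100a8 without HFD replicate 1 or 2 or replicate 3 of the mannose diet, and Cd52 without any 1 of the HFD replicates.

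**Figure D5:**
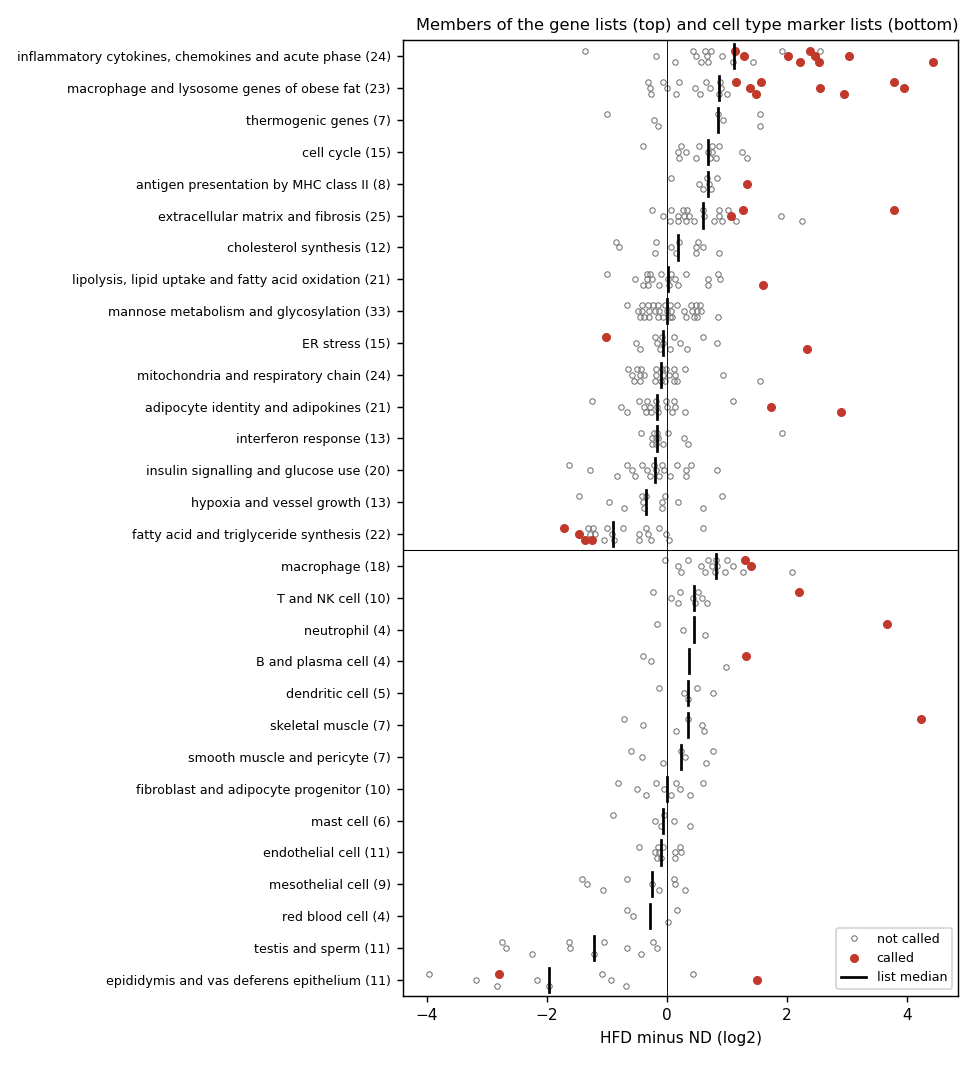
Difference HFD minus ND (log2, horizontal axis) for every tested member of the gene lists (above the line) and the cell type marker lists (below it), with the number tested in brackets, called members in red and a bar at each list's median. Red points lie to the right in the inflammatory and macrophage lists, and to the left for 4 lipid synthesis genes, Asns and Wfdc15b.

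Some probes passed the detection threshold on the arrays of only 1 diet. At a detection p under 0.05, 81 of 45281 probes were detected on all 3 HFD arrays and no ND array. Another 122 were detected on all 3 ND arrays and no HFD array, and 15152 on all 6. At a detection p under 0.01 the counts were 100 for HFD alone and 69 for ND alone, so their order turned with the threshold. With 1 array left out, so that fewer arrays had to detect a probe, 121 to 178 were detected in HFD alone and 210 to 381 in ND alone, the 381 without ND replicate 1. Among called genes, 17 that rose were detected on no ND array and 7 that fell on no HFD array. Those genes passed the detection filter through the arrays of 1 diet alone, so their adjusted p-values are subject to that selection.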

How the data were processed

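The authors deposited, per the file headers, 1 intensity (the mean bead signal) and 1 detection p-value for each probe and array. The submitters' processing notes name GenomeStudio, without a version. On each array 27.3% to 33.2% of intensities were negative, which shows that the deposited intensity had background taken off. The authors' value table holds normalized intensities on a linear scale; how it was normalized is not stated, and it served as an alternative. Slide and scan day were not analysed here.

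Intensities were corrected and normalized in R 4.3.3 with neqc of limma 3.58.1 (background estimated through the detection p-values, offset 16, quantile normalization, log2). The linear model had 1 mean for each diet over all 9 arrays, with 6 residual degrees of freedom, and HFD was compared with ND by limma's moderated test over probes detected (p under 0.05) on at least 3 of the 6 arrays. The smallest two-sided p of an exact permutation test with 3 samples a side is 0.1. The number of arrays limits the precision. A probe not detected on any array of a diet has only a bound there: its fold sets the mean of the other diet against a floor, taken on each array as the lowest detected level or the probe's own level, whichever was higher. The fit was tested on simulated data.

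Genes were named from the platform annotation, updated by gene ID through RefSeq (GRCm38.p6, names only): 34885 probes had 1 symbol, 18 several and 10378 none. Named in the text are the 10 largest rises and falls among called genes whose values did not overlap, and list members. Of 101 called genes with several kept probes, 94 had all probes of 1 sign and 38 had all called, and 37 genes were called only by a dimmer probe. Members, lists and tests were chosen with earlier results of these data known. Alternatives covered background, scaling, detection filter, variance model, array weights, replicate block, a fold threshold and array omission. Marker covariates and the omission of arrays high in testis markers were chosen after seeing the data.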

Additional observations from a re-analysis of the deposited data

How the results depend on the processing

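Of the probes called between HFD and ND, all kept their sign under every alternative that measured them. The 219 genes that rose and the 65 that fell all had values that did not overlap between the diets. A kept sign was therefore close to fixed by the calling on the same arrays and is no separate support. The number of calls depended on the arrays and the variance model. The 438 calls became 1626 with array weights (1006 higher in HFD and 620 lower; ND replicate 3 had the weight 4.27 and ND replicates 1 and 2 had 0.305 and 0.336), 705 with detection p under 0.01 on all 3 arrays of a diet, 219 when tested against 1.2-fold and 162 with the 6 arrays alone. They ranged over 317 to 653 under the other planned settings. Called members became 12, 5 and 6 in the inflammatory list with array weights, the 6 arrays alone and the block, 12, 4 and 3 in the macrophage and lysosome list, 7, 1 and 0 among macrophage markers, and 10, 3 and 1 in the lipid synthesis list, against 9, 8, 2 and 4. In the same order of settings, they became 5, 2 and 1 in the matrix list, 6, 0 and 0 in the MHC class II list, and 5, 0 and 1 lower epididymis markers, against 3, 1 and 1. Leaving out 1 array at a time gave 28 to 424 calls. The cause of these shifts was not tested. With the replicate number as a replicate block 146 were called, 125 higher and 21 lower. Same-numbered HFD and ND samples deviated from their diet means with correlations of 0.340, -0.210 and -0.0899. HFD replicate 3 and ND replicate 2 had 0.393. Deviations from a mean of 3 arrays depend on one another, so these values cannot tell whether the numbers pair samples.

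Alternatives added after seeing the data gave 8 calls with the epididymis marker level as covariate and 470 with the testis marker level. The epididymis covariate did not overlap between HFD and ND, so its fit cannot separate the marker level from diet. Arrays whose mean testis marker level was over 7 were also left out. That limit was set in the gap between 6.14 and 8.40 after the values were seen. It left 1 ND array, so the calls of that fit are not given. The share called higher was 61.9% with array weights and 76.9% in the main comparison. With the epididymis covariate the differences of Cuzd1, Adam7 and Lcn8 turned to 1.94, 2.32 and 2.28. Each of these genes is part of the mean that served as the covariate, so the change of sign cannot be read. Lcn8 ranged from -3.36 to 0.14 when 1 array was left out, with 0.14 without ND replicate 3, and turned to 0.32 without the arrays high in testis markers. None of the 3 was called in the main comparison or with the epididymis covariate.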

Other observations

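Called genes outside the lists included several with small spread; they were chosen by smallest p after their values were seen. The cytochromes Cyp2c23 and Cyp2c70, which metabolise lipids and bile acids, rose in HFD. Cyp2c23 measured 10.03, 10.15 and 9.61 in HFD and 6.92, 6.52 and 6.86 in ND (3.17 ± 0.21, SE; adjusted p = 0.0003). Cyp2c70 was detected on no ND array and was at least 5.15-fold higher in HFD (adjusted p = 0.0012). F7, coagulation factor VII, was at least 5.50-fold higher by the same bound (adjusted p = 0.0033). Nup210, a nuclear pore protein, rose by 2.78, Ct55 by 3.77, Gdf3, a TGF-beta family ligand, by 2.41 and the laminin chain Lamb3 by 1.88. Fam83d, a mitotic spindle protein, was at least 3.99-fold higher. Cyp2c23, Nup210, Ct55 and Gdf3 stayed called without each array in turn. Cyp2c70, F7 and Fam83d did so in the 6 omissions of ND and mannose arrays, the only ones in which they passed the detection filter. Cyp2c70, F7 and Fam83d passed that filter through HFD arrays alone, so their adjusted p-values are subject to that selection. Lamb3 reached an adjusted p of 0.0503 without HFD replicate 2.

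Among the falls, Slc2a13, a myo-inositol transporter, measured 8.64, 8.97 and 8.54 in HFD and 10.10, 10.84 and 10.54 in ND (-1.78 ± 0.23, SE; adjusted p = 0.0079) and stayed called without each array in turn. Gsta3, a glutathione transferase, fell by 1.68, the vanin Vnn3 by 1.64, Sfxn1, a mitochondrial serine carrier, by 1.11 and the transcription factor Sox9 by 1.68. Gsta3, Vnn3, Sfxn1 and Sox9 lost their calls without HFD replicate 2, Sfxn1 also without HFD replicate 1, and Sox9 without any 1 of the HFD replicates.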
